A study of Mus musculus with 6 samples.

Results

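The amino acid and GABA transporters of the mouse heart were read from 79 array probes of 62 gene names, among 55681 probes of 36163 names on the array. They were taken by name, as every probe other than a control whose gene belongs to the solute carrier families Slc1, Slc3, Slc6, Slc7, Slc36, Slc38 or Slc43. The rule uses names alone, but it and the gene lists below were set with earlier results of these data known. All 62 names matched a RefSeq gene. One of them, *Slc7a6os*, is a gene on the opposite strand of *Slc7a6* and no transporter, which leaves 78 probes of 61 transporter genes. Most genes had 1 probe, and *Slc1a2*, *Slc38a1* and *Slc38a9* had 3 each.

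The hearts came from male C57BL/6 mice that were put on a high fat diet (HFD, with fat supplying 60% of the kcal) or on standard chow (normal diet, ND) at the age of 4 weeks and kept on it for 4 months. There were 3 HFD-fed and 3 ND-fed hearts, each with its own Agilent array read in 1 colour. The labels name no transgene or other treatment in either group. The question addressed by the comparison was which genes differ between HFD- and ND-fed mouse hearts.

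Amino acid transporters move amino acids, and some of them creatine, taurine, glycine or GABA, across the plasma membrane or out of the lysosome. The Slc1 and Slc6 families couple uptake to the sodium gradient, the Slc7 light chains mostly work as exchangers bound to a heavy chain of the Slc3 family, and the Slc38 and Slc36 families carry small neutral amino acids with sodium or protons. In heart muscle they feed glutamate and glutamine into energy metabolism and keep the stores of taurine and creatine, whereas GABA transporters are best known from nerve cells and glia.

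A probe's level is given below as the log2 of its background-subtracted intensity relative to the 75th percentile of its array, so that 0 is that percentile. Levels of different probes are not comparable, since each probe binds its target differently. Sums and means over a gene list, given below, compare the same probes between hearts, and bright probes weigh most in a sum. On each array 49.2% to 52.9% of all probes were well above background, as rated by the extraction software, and none was saturated. The heart label was borne out by 10 of 10 heart muscle markers above background, with *Myh6*, the heart muscle myosin, at 9.21 to 9.49 in all 6 hearts. Of 9 skeletal muscle markers, 4 were tested (*Atp2a1*, *Tnni2*, *Tnnt3* and *Pvalb*), and *Tnni2*, a skeletal troponin, was lower in HFD at −0.41 (unadjusted p = 0.0358 in limma). The fibre myosins *Myh1*, *Myh2* and *Myh4* were among the 5 not tested. HFD 1 and HFD 2 lay on row 1 of the slide and the other 4 arrays on row 2. The hearts were bulk samples, in which fewer cells of a type cannot be told apart from less RNA per cell. The limma p-values set the difference between the diets against the spread between hearts of the same diet, which limma estimates with help from all probes tested. The number of hearts limits the precision.

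The heart expressed a broad set of these transporters. Of the 62 genes, 37 had a probe well above background in all 6 hearts (36 of 61 without *Slc7a6os*), 6 in some hearts and 19 in none. By probe, 44 of 79 (55.7%) were above background in every heart, against 46.5% of all probes on the array. The families differed in this. The system A and N family Slc38, which carries glutamine and other small neutral amino acids, had 10 of 11 genes above background in every heart, and the exception was *Slc38a8*. The glutamate and neutral amino acid family Slc1 had 6 of 7, and all 3 genes of Slc43 were above background. In the Slc6 family, which holds the GABA, monoamine, glycine, taurine and creatine transporters, it was 7 of 19, with 9 in no heart. In the Slc7 family it was 7 of 16, *Slc7a6os* included, with 8 in no heart.

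**Figure D1:**
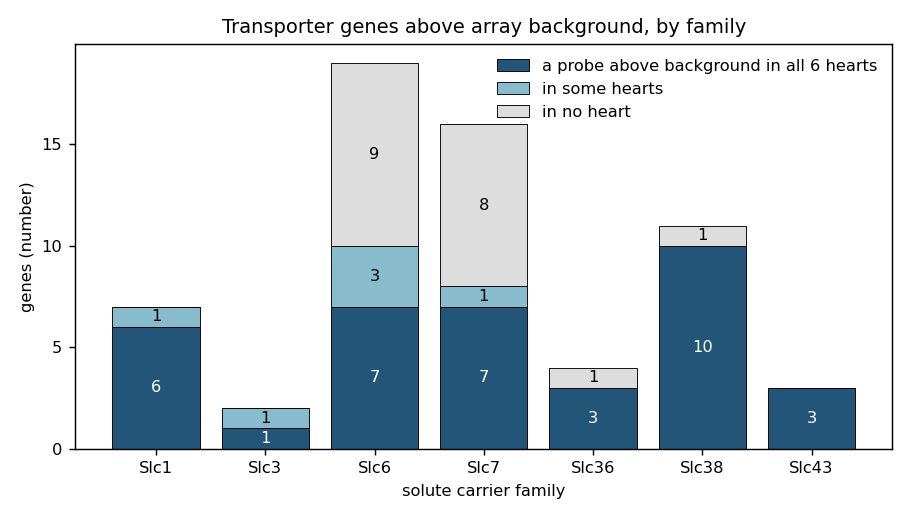
Number of transporter genes in each solute carrier family (x axis) by whether a probe of the gene was well above background in all 6 hearts, in some hearts or in none (stacked bars, y axis in genes). Slc38 has 10 of 11 genes in the darkest class, and Slc6 and Slc7 have 9 and 8 genes above background in no heart. The Slc7 bar includes *Slc7a6os*, which is no transporter.

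Many of the genes above background in no heart have known homes elsewhere. They included the noradrenaline and dopamine transporters *Slc6a2* and *Slc6a3*, the glial GABA transporter *Slc6a11*, and the kidney and gut carriers *Slc6a18*, *Slc6a19*, *Slc7a9* and *Slc7a13*. The cystine and glutamate exchanger *Slc7a11*, the small neutral amino acid exchanger *Slc7a10* and the cationic amino acid carrier *Slc7a3* were also above background in none. The same held for *Slc6a14*, *Slc6a15*, *Slc6a20b*, *Slc7a12*, *Slc7a14*, *Slc7a15*, *Slc36a3* and *Slc38a8*. For these the arrays give only an upper bound, and no difference between the diets is given.

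Between the diets, most transporters differed by little. Of the 79 probes, 45 (of 37 genes) were above background in every heart of at least 1 diet and entered the comparison in limma. At an unadjusted p below 0.05, the limit the study's methods give, 3 probes were higher in HFD (6.67% of the 45, against a background of 5.37% of all 27582 probes tested) and 6 were lower (13.3%, against 6.36%). Together these were 9 probes of 8 genes, or 20% against 11.7%. The genes were *Slc1a2*, *Slc38a4* and *Slc36a4* on the higher side and *Slc1a5* with 2 probes, *Slc1a4*, *Slc6a17*, *Slc7a8* and *Slc43a1* on the lower side. After Benjamini-Hochberg adjustment over all probes tested, limma called 0 of the 45, and the lowest adjusted p was 0.161. The methods' t-test gave 8 before adjustment and 0 after it, and among all probes limma called 0.0145% after adjustment.

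The 45 log2 fold changes (HFD minus ND) ran from −0.62 to 0.67 with a median of −0.13, and 17 were positive and 28 negative. Over all probes tested the median was −0.01 and 51.2% were negative. The 3 HFD hearts lay entirely above the 3 ND hearts for 3 members (background 8.21% of all probes tested) and entirely below for 9 (background 10.7%). The 9 were the 6 already named and *Slc6a6*, *Slc38a7* and 1 probe of *Slc36a1*. For a single probe, an exact permutation test on 3 hearts against 3 cannot go below a two-sided p of 0.1. The count on the higher side was 1 without ND 1 and 5 without HFD 2, and the count on the lower side lay between 4 and 9 with 1 heart left out in turn.

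**Figure D2:**
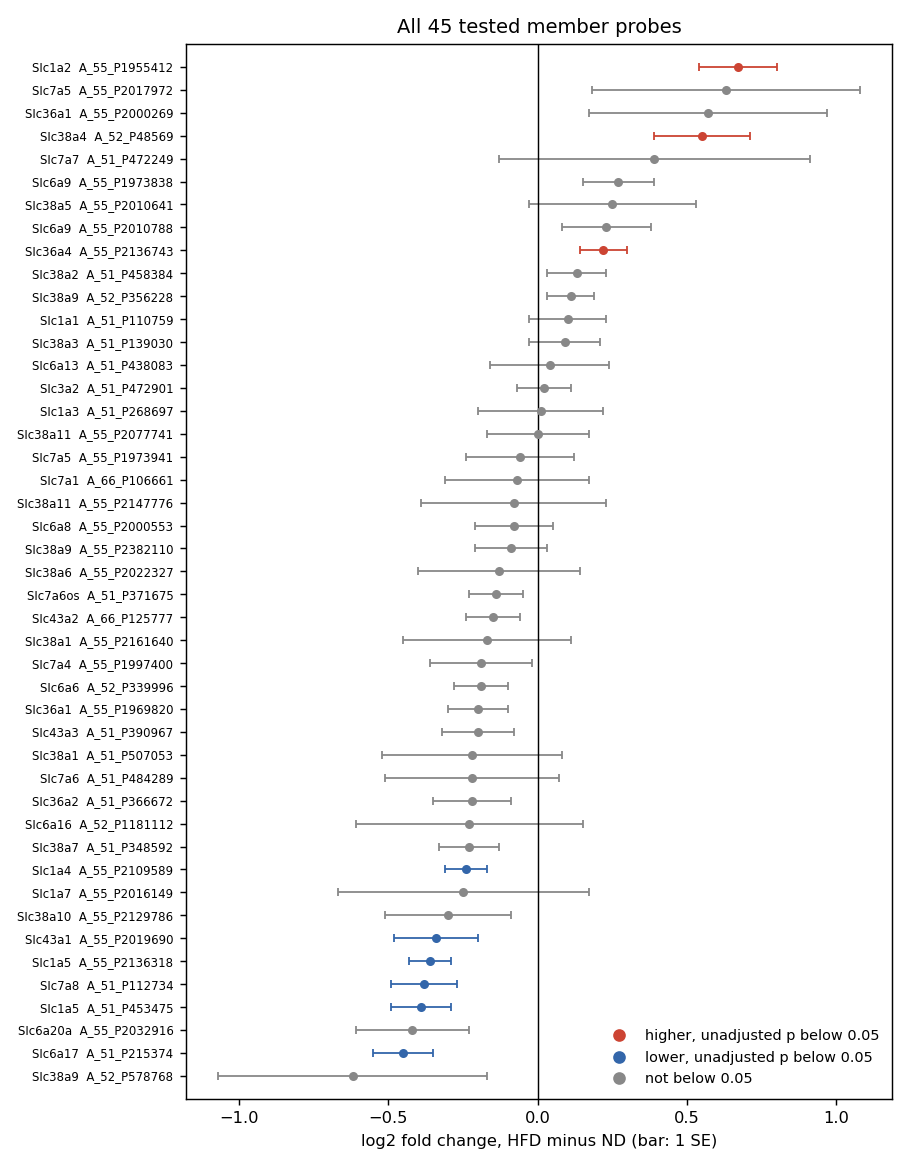
Log2 fold change (HFD minus ND, x axis) of each of the 45 tested probes, with bars of 1 standard error from limma. Red and blue mark the 3 higher and 6 lower calls (unadjusted p below 0.05), and grey the other 36, many of which have bars that reach 0.

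The Slc1 family held 4 of the 9 calls on 7 probes tested, or 57.1% against the 11.7% of all probes, and 2 of the 4 belonged to 1 gene. The family was singled out after its values were seen. It contains sodium-driven carriers of glutamate and of neutral amino acids. *Slc1a5* encodes the main sodium-dependent glutamine carrier of many cells, and it was lower in HFD on both of its probes. The stretches read by 1 probe of *Slc1a5* and by the probe of *Slc1a2* are shown because these probes gave the lowest unadjusted p-values among the members. The probes read the plus strand of chromosomes 7 and 2, and their place within the exons was not analysed here. In the positions of the array design (mm9), the first is chr7:17383027-17383086 and the second chr2:102617752-102617811.
Slc1a5 A_55_P2136318: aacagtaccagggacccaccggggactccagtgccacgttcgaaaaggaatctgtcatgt
Slc1a2 A_55_P1955412: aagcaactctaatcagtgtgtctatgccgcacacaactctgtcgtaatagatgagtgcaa

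Probe A_55_P2136318 of *Slc1a5* was at −0.90, −0.81 and −0.83 in the ND hearts and at −1.23, −1.17 and −1.24 in the HFD hearts. Every HFD heart was below every ND heart, and the hearts within each diet lay close together. The log2 fold change was −0.36 (SE 0.07, unadjusted p = 0.00142, adjusted p = 0.161 in limma), which puts HFD at 77.7% of the ND level. The second probe of the same transcript, A_51_P453475, lies further along the gene (chr7:17383359-17383418). It was at 1.26, 1.56 and 1.40 in the ND-fed hearts and at 1.07, 0.95 and 1.02 in the HFD-fed hearts. These groups did not overlap either, with a log2 fold change of −0.39 (SE 0.10, unadjusted p = 0.00708, adjusted p = 0.263 in limma). Both probes kept an unadjusted p below 0.05 with any 1 heart left out. With the slide row as a term, which leaves HFD 3 alone against the 3 ND hearts of its row, the second probe had a log2 fold change of −0.38 and its call was lost.

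*Slc1a4* encodes ASCT1, a relative of the *Slc1a5* product that exchanges alanine, serine and cysteine. It was at 1.59, 1.53 and 1.62 in the ND hearts, against 1.42, 1.33 and 1.26 in the HFD hearts, with no overlap. The fold change was small, −0.24 on the log2 scale (SE 0.07, unadjusted p = 0.0159, adjusted p = 0.318 in limma). The unadjusted p rose to 0.0505 without ND 1, 0.0503 without ND 3 and 0.0537 without HFD 3.

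*Slc1a2*, the glutamate transporter GLT-1 that clears glutamate in brain, had the highest log2 fold change of the members. Its probe for transcript NM_011393 was at −2.29, −2.50 and −2.60 in the ND-fed hearts and at −1.59, −1.97 and −1.82 in the HFD-fed hearts. The HFD hearts were all higher, by 0.67 (SE 0.13, unadjusted p = 0.00217, adjusted p = 0.193 in limma) or 1.59-fold. The call held with each heart left out in turn and in the other settings listed in the processing, but under normexp background correction its log2 fold change fell to 0.40, where that of *Slc38a4* was 0.45. *Slc38a4* also had the higher value of these genes with array weights, with the slide row as a term, without ND 3 and without HFD 1. The other 2 *Slc1a2* probes, designed on transcript NM_001077514, were above background in no heart, so the difference was seen on 1 probe of 3.

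The remaining Slc1 members did not pass. *Slc1a1* and *Slc1a3*, the glutamate transporters EAAC1 and GLAST, had log2 fold changes of 0.10 (SE 0.13, 95% interval −0.22 to 0.43) and 0.01 (SE 0.21, −0.49 to 0.51). *Slc1a7*, a glutamate transporter known from the retina, had −0.25 with a wide interval of −1.26 to 0.77. *Slc1a6*, known from the cerebellum, was above background in 1 HFD heart and was not tested.

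**Figure D3:**
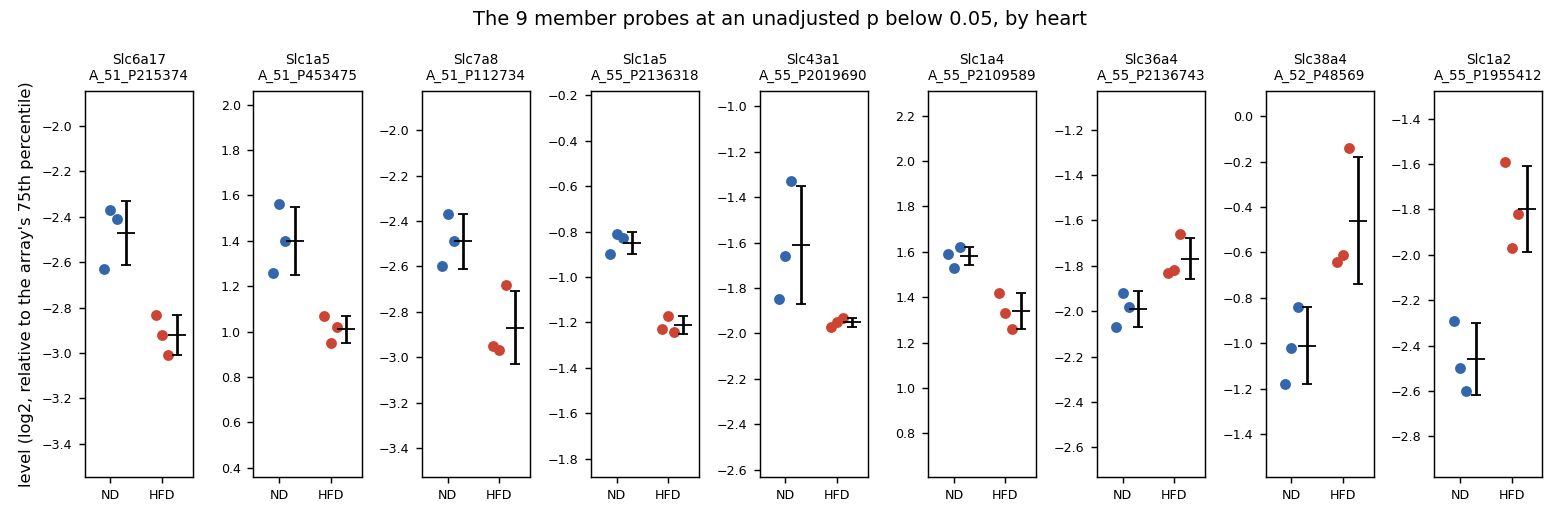
Level of the 9 probes at an unadjusted p below 0.05 in each heart (points, 3 ND in blue and 3 HFD in red, y axis in log2 relative to the 75th percentile, with the same span in each panel), with the mean and SD beside them. In each panel the HFD hearts lie all above or all below the ND hearts, and the means differ most for *Slc1a2* and *Slc38a4*.

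The GABA transporters described here were dim or below background on these arrays. These carriers belong to the Slc6 family. The probe of *Slc6a11* (GAT3) was above background in no heart. *Slc6a13* (GAT2), known from liver, kidney and the membranes around the brain, was above background in all 6. It was at −3.88, −3.22 and −3.33 in the ND hearts, against −3.25, −3.45 and −3.61 in the HFD hearts. These values overlapped, and the log2 fold change was 0.04 (SE 0.20, 95% interval −0.44 to 0.51, unadjusted p = 0.856 in limma).

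*Slc6a12*, the betaine and GABA transporter BGT1, was above background in 2 of 3 ND hearts and in no HFD heart. Its measured levels were −4.32, −4.17 and −4.85 in the ND hearts, against −5.57, −5.27 and −5.41 in the HFD hearts. All HFD values were lower, at the edge of what the array resolves. It did not enter the comparison because no diet had it above background in every heart. The measured ND mean was 1.32-fold above the level of the dimmest probe still well above background on the HFD arrays. That mean includes ND 3, which was not above background, and the reference is another probe. The value is therefore no strict lower bound on the difference. *Abat*, the enzyme that breaks GABA down, was at 3.26, 3.01 and 3.01 in the ND-fed hearts and at 1.81, 0.37 and 1.07 in the HFD-fed hearts, with a fold change of −2.01 on the log2 scale (SE 0.35, unadjusted p = 0.00121, adjusted p = 0.154 in limma).

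Of the other Slc6 genes, *Slc6a17* was the one past the unadjusted threshold. It encodes a carrier that loads neutral amino acids into synaptic vesicles. It was at −2.63, −2.37 and −2.41 in the ND hearts, against −2.83, −2.92 and −3.01 in the HFD hearts. The HFD hearts were all lower, at 73.3% of the ND level, with a log2 fold change of −0.45 (SE 0.10, unadjusted p = 0.00381, adjusted p = 0.235 in limma). This call held with each heart left out and in every other setting tried. The nerve and glia markers, of which 10 of 12 were tested, overlapped between the diets in their summed level (9.88 to 11.7 in ND and 10.1 to 16.3 in HFD, in units of the 75th percentile). The bright probe of *Dbh* gave the largest share of that sum. Of the 10 tested, 2 were lower (background 6.36% of all probes tested). Those were *Th*, the first enzyme of catecholamine synthesis, and *Gpr37l1*, a receptor of glia, at −0.25 and −1.45.

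The creatine transporter *Slc6a8*, on which heart muscle depends for its creatine, was at 5.98, 5.93 and 5.82 in the ND-fed hearts and at 5.57, 6.04 and 5.87 in the HFD-fed hearts. The values overlapped, with a log2 fold change of −0.08 (SE 0.13, 95% interval −0.41 to 0.24). *Slc6a6*, the taurine transporter, was at 2.80, 2.90 and 2.65 in the ND hearts, against 2.64, 2.53 and 2.62 in the HFD hearts. Its HFD hearts were all lower by a narrow margin, and the log2 fold change of −0.19 (SE 0.09, unadjusted p = 0.0765 in limma) did not pass. *Slc6a9*, the glycine transporter GLYT1, had 2 probes that share 51 of their 60 bases and are no independent readings. Their log2 fold changes were 0.27 (SE 0.12, unadjusted p = 0.0576 in limma) and 0.23 (SE 0.15, unadjusted p = 0.169). *Slc6a20a*, a proline carrier, had −0.42 (SE 0.19, unadjusted p = 0.0658 in limma), and *Slc6a16*, a carrier of unknown substrate, −0.23 (SE 0.38).

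Heteromeric transporters pair a heavy chain with a light chain. The common heavy chain *Slc3a2* (CD98) was at 4.00, 3.93 and 3.79 in the ND-fed hearts and at 3.89, 4.04 and 3.87 in the HFD-fed hearts. The diets overlapped, and the 95% interval of the log2 fold change of 0.02 ran from −0.19 to 0.24. The kidney and gut heavy chain *Slc3a1* was above background in 1 ND and 2 HFD hearts and was not tested. Its light chain partner *Slc7a9* was above background in none.

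Among the light chains of *Slc3a2*, *Slc7a8* (LAT2, an exchanger of neutral amino acids) was lower in HFD. It was at −2.60, −2.37 and −2.49 in the ND hearts, against −2.95, −2.97 and −2.68 in the HFD hearts, without overlap. The log2 fold change was −0.38 (SE 0.11, unadjusted p = 0.0148, adjusted p = 0.310 in limma). The value of HFD 3, on row 2 of the slide, lay nearest to the ND hearts. Within row 2, which holds this 1 HFD heart, the log2 fold change was −0.19, and the call was lost. With all rows but without ND 2 it was −0.32 (unadjusted p = 0.0520 in limma).

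*Slc7a5* (LAT1), which brings leucine and other large amino acids into the cell, had 2 probes of 1 transcript that differed in their spread. Probe A_55_P1973941 had a log2 fold change of −0.06 (95% interval −0.49 to 0.37). Probe A_55_P2017972 was at −0.88, −2.58 and −1.06 in the ND-fed hearts and at −0.92, −0.67 and −1.03 in the HFD-fed hearts. Its log2 fold change of 0.63 (SE 0.45, 95% interval −0.47 to 1.74, unadjusted p = 0.211 in limma) rested on ND 2, and the other 5 hearts lay between −1.06 and −0.67. The stretch it reads is shown because the probes of this gene disagreed, and it lies on the minus strand at chr8:124430996-124431055 of mm9.
Slc7a5 A_55_P2017972: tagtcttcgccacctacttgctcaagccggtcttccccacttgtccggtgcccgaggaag

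The exchangers of cationic for neutral amino acids, *Slc7a7* (y+LAT1) and *Slc7a6* (y+LAT2), had log2 fold changes of 0.39 (SE 0.52) and −0.22 (SE 0.29). *Slc7a7* varied more between hearts of 1 diet than between diets, at 0.76, 0.91 and 1.68 in the ND hearts, against 2.43, 0.47 and 1.64 in the HFD hearts. Among the cationic amino acid carriers, *Slc7a1* (CAT1), the general carrier of arginine and lysine, had −0.07 (SE 0.24, 95% interval −0.66 to 0.53). *Slc7a4*, a relative with no settled substrate, had −0.19 (SE 0.17) on 1 probe, and its other probe was above background in no heart. *Slc7a2*, the carrier of liver and macrophages, was above background in 1 ND and 2 HFD hearts and was not tested. *Slc7a6os*, counted apart, had −0.14 (SE 0.09, unadjusted p = 0.171 in limma).

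In the Slc38 family, *Slc38a4* was the 1 gene of 10 tested that passed. It encodes SNAT4, a system A carrier best known from liver and placenta. It was at −1.18, −1.02 and −0.84 in the ND-fed hearts and at −0.64, −0.61 and −0.14 in the HFD-fed hearts. The HFD hearts were all higher, 1.46-fold on average, with a log2 fold change of 0.55 (SE 0.16, unadjusted p = 0.0155, adjusted p = 0.316 in limma). HFD 3 was the highest of them, and since it is the 1 HFD heart on row 2 of the slide, the log2 fold change within that row was 0.87. Without ND 1 it was 0.47 (unadjusted p = 0.0532 in limma).

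*Slc38a2* (SNAT2), the system A carrier that cells are known to raise when amino acids run short, was at 5.06, 5.09 and 4.87 in the ND hearts, against 5.02, 5.26 and 5.12 in the HFD hearts. These values overlapped, with a log2 fold change of 0.13 (SE 0.10, 95% interval −0.12 to 0.37). *Slc38a1* (SNAT1) had 2 tested probes at −0.22 (SE 0.30) and −0.17 (SE 0.28), and 1 more probe above background in 1 ND heart. The system N glutamine carriers *Slc38a3* and *Slc38a5* had 0.09 (SE 0.12) and 0.25 (SE 0.28). *Slc38a7*, which exports glutamine from the lysosome, was at 0.14, 0.28 and 0.47 in the ND-fed hearts and at 0.06, 0.02 and 0.12 in the HFD-fed hearts. The groups did not overlap, and −0.23 (SE 0.10, unadjusted p = 0.0626 in limma) did not pass. *Slc38a9*, the arginine sensor of the lysosome, had 3 probes at −0.62 (SE 0.45), 0.11 (SE 0.08) and −0.09 (SE 0.12). On the first of these ND 3 stood at 1.98 and the other 5 hearts between 0.22 and 0.38. The less studied *Slc38a6* and *Slc38a10* had −0.13 (SE 0.27) and −0.30 (SE 0.21), and *Slc38a11* had 0.00 and −0.08.

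The proton-coupled Slc36 carriers had 1 call. *Slc36a4*, a carrier with high affinity for proline and tryptophan, was at −2.07, −1.92 and −1.98 in the ND hearts, against −1.83, −1.82 and −1.66 in the HFD hearts. The HFD hearts were all higher by a small step, 0.22 on the log2 scale (SE 0.08, unadjusted p = 0.0379, adjusted p = 0.398 in limma). The unadjusted p rose above 0.05 when ND 1 (0.124), ND 2 (0.0502), ND 3 (0.0772), HFD 2 (0.0514) or HFD 3 (0.114) was left out. With normexp background correction the log2 fold change was 0.11 (unadjusted p = 0.141 in limma). *Slc36a1*, which exports small amino acids from the lysosome, had 2 probes of opposite sign, −0.20 (SE 0.10) and 0.57 (SE 0.40), and neither passed. *Slc36a2*, a carrier of glycine and proline, had −0.22 (SE 0.13).

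All 3 Slc43 genes had negative values. *Slc43a1* (LAT3), a carrier of large neutral amino acids, was at −1.85, −1.66 and −1.33 in the ND-fed hearts and at −1.97, −1.95 and −1.93 in the HFD-fed hearts. The HFD hearts were nearly identical and below every ND heart, with a log2 fold change of −0.34 (SE 0.14, unadjusted p = 0.0494, adjusted p = 0.424 in limma). This call was lost in 15 of 19 other settings, and the log2 fold change without ND 3, the highest heart, was −0.19 (unadjusted p = 0.0839 in limma). It was lost as well without ND 2 (0.0811), HFD 1 (0.110), HFD 2 (0.101) and HFD 3 (0.0958). *Slc43a2* (LAT4) and *Slc43a3*, which carries purine bases, had −0.15 (SE 0.09) and −0.20 (SE 0.12).

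Genes that handle the same amino acids inside the cell were set beside the transporters, with 1 probe per gene. The glutamine and glutamate enzymes were the most one-sided of these lists, with all 8 genes negative, a median of −0.17, 4 lower and 0 higher in limma, where 51.2% of all probes tested were negative and 6.36% were called lower. Lower were *Gpt* (alanine aminotransferase) at −0.54 (SE 0.13, unadjusted p = 0.00612, adjusted p = 0.254 in limma), *Glul* (glutamine synthetase) at −0.43, *Glud1* (glutamate dehydrogenase) at −0.23 and *Got1* (aspartate aminotransferase) at −0.23. At the unadjusted threshold, *Glul* was borderline with an unadjusted p of 0.0488 in limma. The mean level of the list was lower in every HFD heart than in every ND heart.

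The amino acid shortage list holds mostly genes that the factor ATF4 is known to switch on when amino acids are scarce. It also holds *Atf4* itself and *Eif2ak4*. Of 20 tested genes, 7 were higher and 1 lower, with a median of 0.17, where the background was again 5.37% of all probes on the higher and 6.36% on the lower side. *Mthfd2*, an enzyme of mitochondrial folate metabolism, was at −2.42, −2.65 and −2.86 in the ND hearts, against −1.22, −1.10 and −1.42 in the HFD hearts. The groups were far apart, with a log2 fold change of 1.39 (SE 0.14, unadjusted p = 5.99e-05, adjusted p = 0.0786 in limma). *Asns* (asparagine synthetase) was higher by 0.55 and the serine synthesis enzymes *Phgdh* and *Psat1* by 0.62 each. *Aldh1l2*, *Atf5* and *Cebpg* were higher by 0.66, 0.30 and 0.25. *Cth*, which makes cysteine, was at −1.08, −1.56 and −0.66 in the ND-fed hearts and at −2.99, −3.01 and −2.86 in the HFD-fed hearts, lower at −1.85 (SE 0.22, unadjusted p = 0.000156, adjusted p = 0.0914 in limma). *Atf4* itself had 0.25 (SE 0.14, unadjusted p = 0.117 in limma). Some transporters that ATF4 is also known to regulate had the values given above. They were not set as a list beforehand and are not a full one. *Slc1a5* and *Slc1a4* were lower, and *Slc3a2*, *Slc7a5*, *Slc7a1* and *Slc38a2* did not pass. *Slc7a11* was above background in no heart. The part of ATF4 in these values was not tested.

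**Figure D4:**
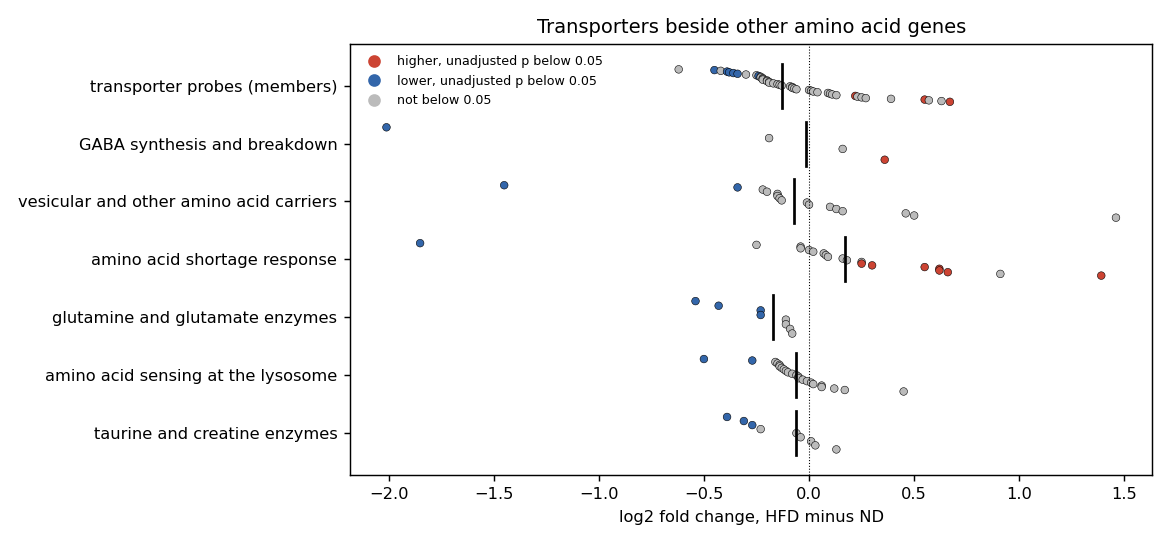
Log2 fold change (HFD minus ND, x axis) of each tested transporter probe and of the genes in 6 lists of amino acid metabolism (rows, 1 probe per gene, short vertical lines are medians). The transporter row, which includes *Slc7a6os*, centres at −0.13 (−0.11 without it). The amino acid shortage genes centre at 0.17, with 7 of their 20 genes in red.

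In the other 4 lists, *Maob* was the single gene called higher. The counts below stand against 5.37% called higher and 6.36% called lower over all probes tested. Of 16 tested vesicular, mitochondrial and other carriers of amino acids or peptides, 0 were higher and 2 lower in limma. These were *Slc17a8* (a vesicular glutamate transporter) at −1.45 (SE 0.38, unadjusted p = 0.00846, adjusted p = 0.271 in limma) and *Slc25a13* (the mitochondrial aspartate and glutamate carrier) at −0.34 (SE 0.08, unadjusted p = 0.00457, adjusted p = 0.242). Of 23 genes that sense amino acids at the lysosome, 2 were lower, near the share of all probes. They were *Sesn1* (a leucine-binding sestrin family gene) at −0.50 and *Wdr59* (of the GATOR2 complex) at −0.27. Of 9 taurine and creatine enzymes, 3 were lower, the creatine kinases *Ckb* and *Ckm* at −0.39 and −0.27 and *Gamt*, the last enzyme of creatine synthesis, at −0.31. Of 4 tested genes of GABA synthesis and breakdown, *Abat* was lower and *Maob*, a monoamine oxidase, was higher by 0.36 (SE 0.08, unadjusted p = 0.00448, adjusted p = 0.241 in limma). *Aldh5a1* and *Aldh9a1*, which oxidise the aldehydes of this pathway, had −0.19 and 0.16, and the GABA-making enzymes *Gad1* and *Gad2* were not tested. No gene of these 6 lists passed the adjustment in limma.

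Because the shortage genes and some transporters share a known control element, the promoters were searched for it. The windows were RefSeq promoters (build GRCm38.p6) from 250 bases before to 50 after each start, and the motif was TGATGNAA on either strand. It was found for 3 of 44 member genes with a window (6.82%), for 6 of 19 shortage genes (31.6%) and for 1219 of 27025 genes overall (4.51%). The shortage genes were listed mostly for known control by ATF4, so their share follows from that choice and says nothing about these hearts. Among called genes with a window, 1 of 7 members (14.3%) and 1 of 6 shortage genes (16.7%) had it. Of the 6 shortage genes with the motif, *Asns* was called higher, *Chac1*, *Nupr1*, *Trib3* and *Vldlr* did not pass and *Fgf21* was not tested. A match describes letters and not a used site. The member genes were *Slc1a4*, lower in HFD, *Slc7a7*, which did not pass, and *Slc7a11*, above background in no heart. They are shown beside *Asns*, a classic gene with this element, written on the strand of the gene with the match in capitals. In the order printed they lie at chr6:7693214-7693243, chr11:20332699-20332728, chr14:54417927-54417956, chr14:54418067-54418096, chr3:50443642-50443671 and chr3:50443661-50443690, all with the gene on the minus strand.
Asns: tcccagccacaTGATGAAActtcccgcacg
Slc1a4: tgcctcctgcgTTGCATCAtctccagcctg
Slc7a7: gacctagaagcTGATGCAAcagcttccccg
Slc7a7, second match: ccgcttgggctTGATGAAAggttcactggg
Slc7a11: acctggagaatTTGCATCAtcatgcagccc
Slc7a11, second match: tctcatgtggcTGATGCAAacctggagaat

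Several transporters varied between hearts with the level of atrial muscle genes, which is given here because it differed widely within each diet. The mean level of 5 tested atrial muscle genes, among them *Nppa* and *Myl7*, was 4.19, 5.39 and 6.85 in the ND hearts, against 7.32, 0.93 and 6.29 in the HFD hearts, so that the diets overlapped and HFD 2 stood far below the rest. This level was then added as a covariate in limma. Its slope had an unadjusted p below 0.05 for 10 of 45 member probes (22.2%, against 13.3% of all probes tested). Of the 10, 8 were positive and 2 negative, and 0 passed the adjustment. Both tested probes of *Slc38a1* and both of *Slc6a9* were among them, so the 10 are fewer genes. The *Slc6a9* probes are no independent readings. *Slc7a7* had the steepest slope, 0.29 per log2 unit of atrial level (unadjusted p = 0.000922, adjusted p = 0.141 in limma). *Slc38a6* had 0.15 (unadjusted p = 0.000529, adjusted p = 0.124), both tested *Slc38a1* probes 0.15 each and *Slc38a5* 0.14. The negative slopes were those of *Slc1a1* and the creatine transporter *Slc6a8*, −0.06 each. Without HFD 2, a setting added after the data were seen, 5 of 45 member probes were past the threshold (background 6.49%). Of these, 4 were among the 10. They were *Slc7a7*, with a slope of 0.41 (unadjusted p = 0.0154 in limma), *Slc38a6*, with 0.17 (unadjusted p = 0.0322), and both *Slc38a1* probes, with 0.31 and 0.26, whereas *Slc38a5* had 0.11 (unadjusted p = 0.282).

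**Figure D5:**
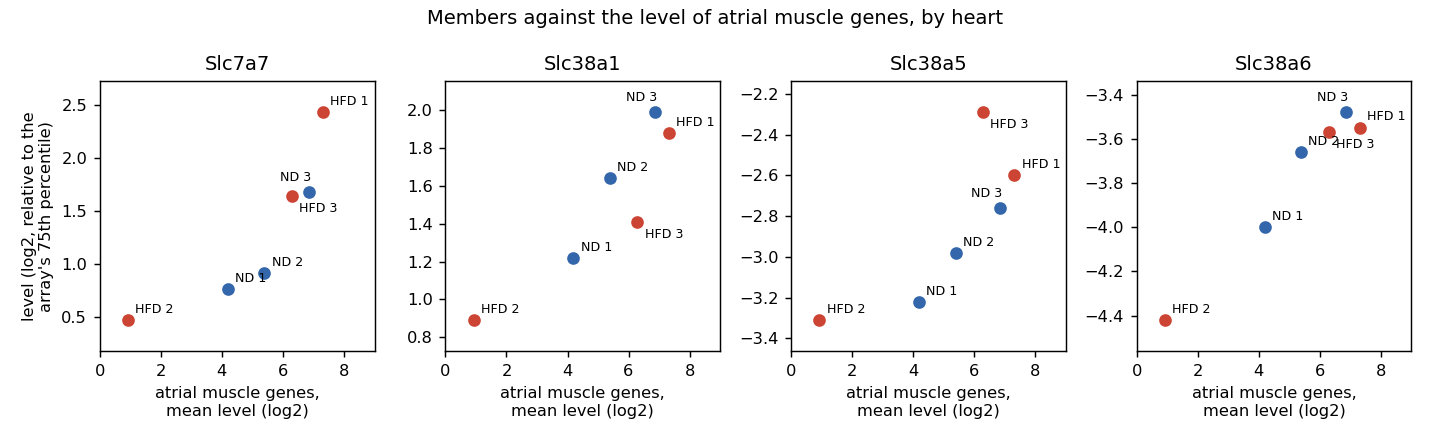
Level of *Slc7a7*, *Slc38a1*, *Slc38a5* and *Slc38a6* in each heart (y axis, log2 relative to the 75th percentile) against the mean level of the atrial muscle genes in that heart (x axis, log2, ND in blue, HFD in red). HFD 2, with an atrial level of 0.93, has the lowest value in all 4 panels.

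With the atrial level in the fit, the diet difference of *Slc7a7* was 0.57 (SE 0.17, unadjusted p = 0.0218, adjusted p = 0.265 in limma) and those of the 2 *Slc6a9* probes 0.31 (SE 0.07, unadjusted p = 0.00826) and 0.28 (SE 0.09, unadjusted p = 0.0240). Without HFD 2 these became 0.37 for *Slc7a7* (unadjusted p = 0.169 in limma) and 0.32 and 0.37 for *Slc6a9* (unadjusted p = 0.0467 and 0.0305). In the fit to all 6 hearts, all 9 called probes but that of *Slc43a1* (unadjusted p = 0.0736) kept an unadjusted p below 0.05. With the covariate but without HFD 2, *Slc1a4* (0.0571), *Slc36a4* (0.137), *Slc38a4* (0.0949) and *Slc7a8* (0.133) were not below 0.05 in limma, and *Slc43a1* was (0.0128). White adipocyte genes were lowest in HFD 2 as well, with a mean level of −1.58, −0.70 and −0.55 in the ND hearts, against 0.12, −3.97 and −1.37 in the HFD hearts, and the slopes on these lists cannot be told apart with 6 hearts.

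Erythroid markers were lower in HFD. Of 8 tested erythroid genes of 13, 7 were lower in HFD (background 6.36% of all probes tested) and 0 higher in limma, with a median of −0.51. Their summed level ran from 635 to 811 in ND and from 409 to 566 in HFD. The bright probes of *Hba-a1* and *Hbb-b1* gave the largest share of that sum. The mean level of the list was also lower in every HFD heart than in every ND heart. *Klf1* and *Gata1*, which define erythroid precursors, were not tested. Of 11 macrophage genes, *Cd163* and *Lyve1* were lower (the same background of 6.36%), and 3 had positive values. The summed macrophage level, to which the bright probe of *Csf1r* gave the largest share, was 52.4 to 56 in ND and 44.9 to 51.1 in HFD. *Csf1r* itself overlapped between the diets. The mean level of the 11 macrophage genes was 0.68, 0.75 and 0.71 in the ND hearts, against 0.59, 0.40 and 0.57 in the HFD hearts, without overlap. Endothelial, fibroblast and heart muscle genes overlapped between the diets in their mean level. Lower, against the same background, were *Kdr* and *Egfl7* of 7 endothelial genes, *Pdgfra* of 7 fibroblast genes and *Tnnc1* of 10 heart muscle genes, with none higher. The summed endothelial level was 105 to 112 in ND and 87.6 to 101 in HFD. The bright probe of *Egfl7*, itself called lower, gave the largest share of that sum. The median of the 7 endothelial genes was 0.03, with 4 positive and 3 negative. The part of these cells in the transporter differences was not tested.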

How the data were processed

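RNA of 3 ND and 3 HFD hearts was hybridised to 1 Agilent array per heart. The authors deposited linear intensities (processed signal, spot and local background), in which Agilent Feature Extraction 10.7.1.1 had subtracted background and a spatial trend within the array, with no normalization between arrays. They also deposited log2 values of the same arrays, of unstated normalization. Each column of these followed its own array (Spearman's rho 1, at most 0.954 with any other) and differed from a quantile normalization of the intensities by a median of at most 0.000131. They served as an alternative.

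Outlier-rated spots (127 to 190 per array) and control spots were dropped, spots of a probe were averaged, and log2 intensities were centred on the 75th percentile of the array. A probe counted as above background in a heart when over 0.5 of its spots were. Probes above background in every heart of a diet and measured in at least 2 hearts of each entered a two-sided limma 3.58.1 fit (R 4.3.3) with Benjamini-Hochberg adjustment over 27582 probes. The code was tested on simulated data, where 181 of 200 probes changed by 2 on the log2 scale were called after adjustment (90.5%), with 11 false calls among 27546 probes. The tested members ran from −0.62 to 0.67, so this share does not say how often changes of their size would be called.

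Members, gene lists and tests were chosen with earlier results of these data known. Values are named for every member above background in all hearts, and for genes of the amino acid lists at an unadjusted p below 0.05. The alternatives were quantile normalization, normexp correction with an offset of 50, no filter or a stricter one, the authors' log2 values, the methods' t-test, a variance trend with robust fitting (statmod 1.5.0), array weights, a replicate block, outlier spots kept, slide row, atrial level, averaged probes, and each heart left out. All 6 arrays differed from each other (Pearson's r 0.990 to 0.995 within a diet). The separate results of 1 member and 1 list gene are not reported here.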

Additional observations from a re-analysis of the deposited data

How the results depend on the processing

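The number of members past the adjustment was 0 in limma and in every alternative run, against 9 at an unadjusted p below 0.05 and 6 to 14 across the alternatives. The number higher in HFD was 5 with array weights and 6 with the atrial level as a covariate, in place of 3. With 1 heart left out it ran from 1 (without ND 1) to 5 (without HFD 2), and the number lower ran from 4 to 9. No sign of the 9 called probes turned. *Slc1a2*, *Slc6a17* and probe A_55_P2136318 of *Slc1a5* kept an unadjusted p below 0.05 in all 19 alternatives, *Slc38a4* and the other *Slc1a5* probe in all but 1, *Slc7a8* in all but 2, *Slc1a4* in all but 3, *Slc36a4* in 10 and *Slc43a1* in 4. The replicate numbers share no stated source, and the deviations of same-numbered hearts correlated at −0.154, 0.147 and 0.191, so they were not taken as pairs. With the replicate block there were 3 higher and 8 lower, 8 of the 9 calls among them (not *Slc36a4*). With the slide row as a term there were 4 higher and 5 lower, with 6 of the 9 among them, and this fit rests on HFD 3, since row 1 held HFD arrays alone. The cause of these shifts was not tested. Dim members and those above background in no heart are limited by the array's background.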

Other observations

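Some members were above background in part of the hearts and are given without a test. *Slc6a7*, the brain proline transporter, was above background in 1 ND and 2 HFD hearts, at −5.27, −4.69 and −3.71 in the ND-fed hearts and at −3.56, −4.61 and −4.38 in the HFD-fed hearts. *Slc6a4*, the serotonin transporter, was above background in 1 ND heart alone, where it stood at −3.46 against −6.19 and −4.93 in the other ND hearts and −5.14 to −5.11 in HFD. *Slc7a2* was at −5.33, −5.10 and −4.11 in the ND hearts, against −4.51, −4.14 and −5.39 in the HFD hearts. In each of these the diets overlapped.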
